A study of Mus musculus with 3 samples.

Results

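Reads on 3 clusters of tRNA genes were followed through 3 mouse small RNA libraries. The clusters are the regions chr1:172960001-173050000, chr13:23490001-23560000 and chr17:23670001-23690000, in the coordinates of the deposited files, whose chromosome naming is that of the mm9 assembly. They were cut into 360 bins of 500 bp, and a read was counted in the bin that held its left end. Of these bins 74 held a read in any library, among 185214 such bins with a read over the genome. The regions were chosen by their read counts in these libraries, so their read levels describe them and are no independent finding. At each border of the 3 regions the last bin inside and the first bin outside held 0 reads in every library. Within 5 kb outside the borders there were 126 spleen reads left of the chromosome 1 region and 18 MEL reads left of the chromosome 13 region. No other count there was above 2 reads in a library.

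The MEL library came from MEL cells, an established line of mouse erythroblasts transformed by the Friend virus, and holds RNA pulled down with a rabbit polyclonal antibody against MIWI2 (PIWIL4), a PIWI protein that carries piRNAs. The spleen library holds RNA from the same kind of immunoprecipitation, made from unfractionated splenocytes of C57Bl6/J mice at 10 weeks of age. The testis library was no immunoprecipitate: total RNA of adult testis from C57Bl6/J mice, also 10 weeks old, was run on an 18% gel, from which the RNA near 29 nt was recovered. Neither input RNA nor a control pull-down was analysed here, and splenocytes are a mixture of blood cell types. Each group had 1 library, so no difference below has a replicate check, and intervals are exact 95% limits that cover counting error only. MEL held 823452 reads, spleen 692011 and testis 1143785, so that 3 reads corresponded to 3.64, 4.335 and 2.62 reads per 1000000 (RPM).

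Transfer RNAs bring amino acids to the ribosome, and mammalian genomes hold several near-identical gene copies for most of them, often in clusters. Cells also cut tRNAs into fragments. Cleavage in the anticodon loop by nucleases such as angiogenin gives long fragments from either end of the tRNA, cleavage in the D or T loop gives shorter ones, and the trailer removed from the precursor gives a further kind. Fragments of tRNAs have been found with Argonaute and PIWI proteins, and they are also frequent in total small RNA. The files hold no strand and no sequence, so a read stack here could not be assigned to the 5′ or the 3′ part of a tRNA. The label of the regions could not be checked against gene positions, because annotation of the build the files use was not used here. The RefSeq gene table of another build, GRCm38.p6, lists 37 tRNA genes on chromosome 1, 105 on chromosome 13 and 12 on chromosome 17. Their longest runs with no other gene between them were 19, 13 and 5 genes, and no stack is named by gene below.

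Over all read lengths MEL had by far the most reads in the clusters. The 360 bins held 39377 MEL reads, or 47819.4 RPM (47348.3 to 48294.1), which was 4.78% of the library. They held 1511 spleen reads, or 2183.5 RPM (2074.8 to 2296.4), and 3447 testis reads, or 3013.7 RPM (2913.9 to 3116.0). MEL was thus 21.9-fold above spleen and 15.9-fold above testis, while testis was 1.38-fold above spleen. Because only the testis RNA was taken from a gel near 29 nt, selection and tissue cannot be told apart in folds against testis. At 29 to 32 nt alone the clusters held 2556.4 RPM in testis, 1979.5 in MEL and 744.2 in spleen. The order of spleen and testis turned with the reads counted. Of the spleen library 73.2% of the reads were under 18 nt. Scaled to the reads of at least 18 nt, MEL had 70594.7 RPM, spleen 7582.8 and testis 3034.4. Spleen was also above testis with each distinct interval counted once (3389.2 against 637.9 RPM) and without chromosome 1 (582.4 against 91.8). Without the most-read bin spleen and testis were close, at 1518.8 and 1460.9 RPM.

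The 3 regions were alike in MEL and unlike in the other libraries. MEL had 16336.1 RPM on chromosome 1, 15589.3 on chromosome 13 and 15894.1 on chromosome 17. Spleen had 1601.1, 274.6 and 307.8 RPM in the same order, and testis 2921.9, 64.7 and 27.1 RPM. Of the 3447 testis reads, 3342 lay on chromosome 1. The excess of MEL over testis was therefore 5.59-fold on chromosome 1, 241.0-fold on chromosome 13 and 586.4-fold on chromosome 17. Against spleen it was 10.2-fold, 56.8-fold and 51.6-fold. For reads of 29 to 32 nt alone the ratio of MEL over testis was 0.365, 24.9 and 43.9 in the same order.

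Few bins carried the reads. MEL had a read in 67 of the 360 bins, spleen in 51 and testis in 39, and 46, 26 and 10 bins reached 10 RPM. The 10 most-read bins of each library held 67.04% (MEL), 83.5% (spleen) and 97.01% (testis) of its reads in the clusters. In MEL the leading bin was chromosome 17 from 23677501 to 23678000, with 5646 MEL, 20 spleen and 6 testis reads. In both spleen and testis it was chromosome 1 from 173033001 to 173033500, with 1577 MEL, 460 spleen and 1776 testis reads. This bin alone held 30.4% of what spleen had in the clusters and 51.5% of what testis had.

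A bin was called higher in a library at 100 RPM or more and at least 4-fold the level in the other, where fewer than 3 reads counted as 3. By this rule 27 of the 31 bins with 100 RPM in MEL or testis were higher in MEL, where 31.1% of all such bins of the genome were, and 12 of the 27 had fewer than 3 testis reads. None was higher in testis, against 65.1% over the genome. Against spleen, 27 of 31 bins were higher in MEL, with 39.8% over the genome, and 0 were higher in spleen, with 33.5%. Spleen was higher than testis in 2 of 6 bins, close to the 32.1% over the genome, and testis was higher in 0, with 67.3%. These shares carry the choice of the regions for their reads.

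The largest ratios of MEL over testis were in bins with few testis reads. On chromosome 17 from 23683001 to 23683500 MEL had 3789 reads, spleen 11 and testis 3, a ratio of 1754.3 over testis with an interval of 599.8 to 8510.7. On chromosome 13 from 23528501 to 23529000 the counts were 3719, 5 and 3, a ratio over testis of 1721.9 (588.8 to 8353.5). With 3 testis reads in each, the ratios are known only within these wide limits. Next came the leading MEL bin, chromosome 17 from 23677501 to 23678000, with 6 testis reads and a ratio of 1307.1 (600.1 to 3563.2). On chromosome 1 from 173041501 to 173042000 MEL had 2079 reads, spleen 194 and testis 0. Against a level of 3 testis reads MEL was 962.6-fold and spleen 106.9-fold higher. These folds are no lower limits, since the exact upper limit for 0 testis reads was 3.225 RPM, above the level of 3 reads.

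**Figure D1:**
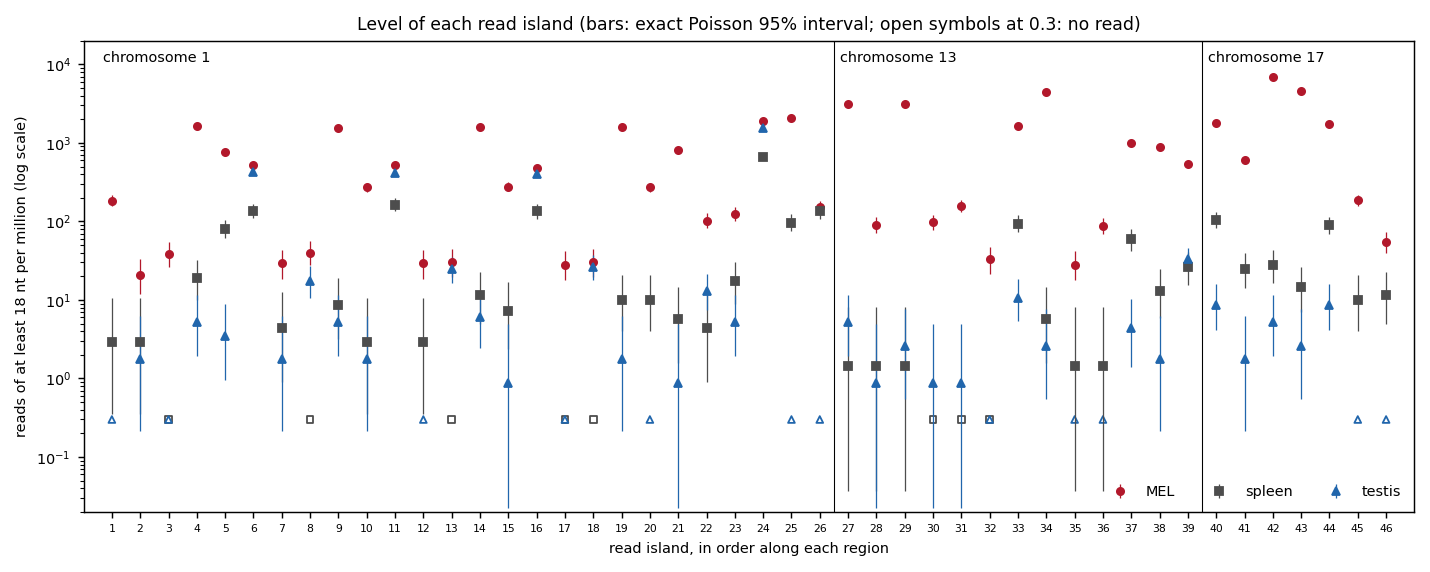
Level in reads of at least 18 nt per 1000000 (log axis) of the 46 read islands with 20 or more reads, in order along the 3 regions, with exact Poisson 95% intervals. MEL (red circles) lies above testis (blue triangles) in every island. Testis comes close to MEL in the 4 islands of chromosome 1 where it exceeds 100 RPM. It is also close in small islands at 173003101 and 173010715, with ratios of MEL over testis of 1.24 and 1.16.

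Read lengths differed between the libraries inside the clusters. In MEL 68.0% (67.5 to 68.4) of the cluster reads were 24 to 28 nt long, 24.9% were 18 to 23 nt and 4.14% were 29 to 32 nt. Testis reads were mostly longer, with 84.8% (83.6 to 86.0) at 29 to 32 nt, 11.5% at 24 to 28 nt and 3.37% at 18 to 23 nt. Because only the testis RNA was taken from a gel near 29 nt, selection and tissue cannot be told apart in these shares. Spleen was spread over the classes, with 26.4% at 18 to 23 nt, 21.0% at 24 to 28 nt and 34.1% (31.7 to 36.5) at 29 to 32 nt. A further 11.65% of the spleen reads were 33 nt or longer, against 0.0381% in MEL and 0.145% in testis. The longest reads were 40 nt in spleen and 36 nt in both of the others.

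Reads under 18 nt were less frequent in the clusters than among the other reads of each library. The 24 to 28 nt share in MEL was 29.96% outside the clusters, where 35.9% of the reads were shorter than 18 nt, against 3.004% inside. In spleen 73.3% of the other reads were shorter than 18 nt, against 6.88% in the clusters, and 5.1% were 29 to 32 nt long. In testis 0.858% of the other reads were under 18 nt, against 0.174% in the clusters, and 75.2% were 29 to 32 nt long. Single lengths stood out: reads of 25 nt made up 25.9% of MEL in the clusters, and those of 30 nt 66.6% of testis, against 31.4% of the other testis reads. The most frequent spleen length in the clusters was 32 nt, with 13.96%, where the other spleen reads were most often 16 nt long.

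**Figure D2:**
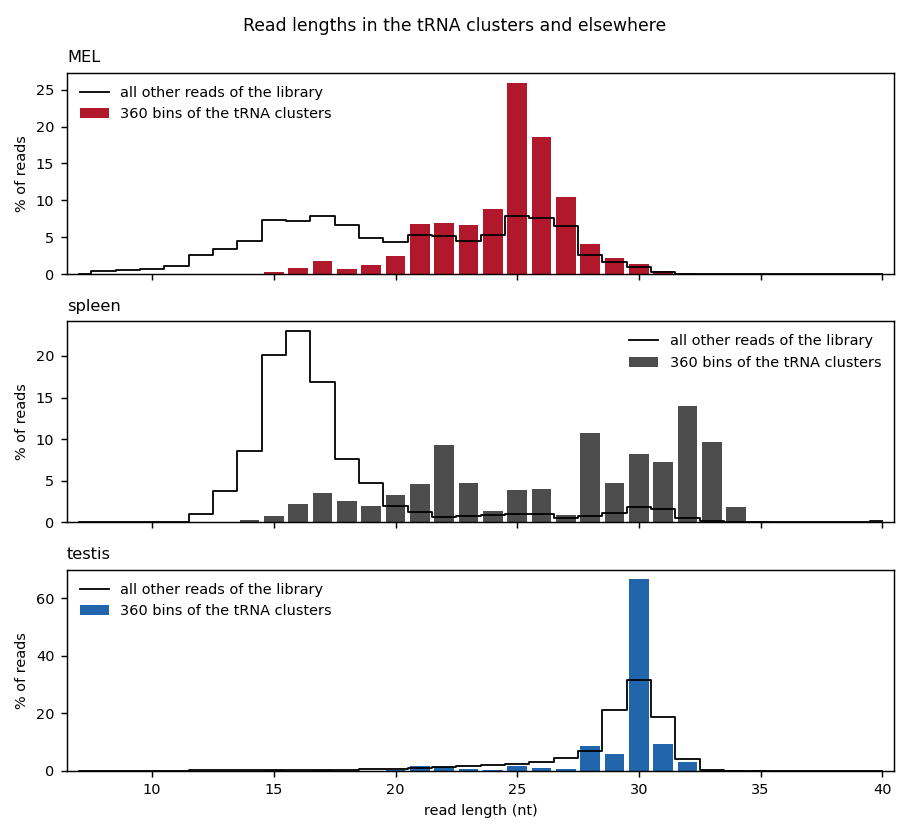
Share of reads (%) by read length (nt) in the 360 bins (bars) and in all other reads of the library (line). The bars peak at 25 nt in MEL and at 30 nt in testis, and spread from 16 to 34 nt in spleen with peaks at 22, 28 and 32 nt.

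Testis exceeded MEL in 1 of the 9 pairs of region and length class, on chromosome 1 at 29 to 32 nt. There testis had 2523.2 RPM (2432.0 to 2617.0), MEL 920.5 (856.1 to 988.4) and spleen 674.8 (615.0 to 738.9), so that testis was 2.74-fold above MEL. At 24 to 28 nt MEL had 7949.5 RPM there, testis 316.5 and spleen 177.7. At 18 to 23 nt the values were 6188.6, 73.4 and 422.0 RPM. On chromosome 13 MEL led in all 3 classes, at 29 to 32 nt with 522.2 RPM against 21.0 in testis and 30.4 in spleen. Chromosome 17 was the same, with 536.8, 12.2 and 39.0 RPM.

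Overlapping reads of at least 18 nt were joined into read islands, which narrows each signal to the stretch that was read. The clusters held 86 islands, of which 46 had 20 or more reads over the libraries together: 26 on chromosome 1, 13 on chromosome 13 and 7 on chromosome 17. These 46 held 99.8% (MEL), 98.5% (spleen) and 99.6% (testis) of the reads of that length in the bins. Their median width was 66 nt, from 27 to 116 nt, and 41 were at most 80 nt wide. Levels ran from 20.6 to 6822.5 RPM in MEL with a median of 379.5, from 0 to 660.4 in spleen with a median of 9.39, and from 0 to 1552.7 in testis with a median of 2.19. All 46 had a higher level in MEL than in either other library, and 30 a higher level in spleen than in testis. The limit of 20 reads was set on the libraries together, and in these islands MEL had 38103 reads, spleen 1386 and testis 3427. It therefore favoured islands high in MEL, and the same shares over the islands of the genome were not computed.

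The coordinate at which most reads of an island began or stopped is called the sharp end here, and it was a left end in 18 islands and a right end in 28. It held at least 50% of the reads in 39 of the 46 islands. Over the 46 islands it held 81.0% (80.6 to 81.4) of the MEL reads, 83.5% (81.4 to 85.4) of the spleen reads and 97.0% (96.4 to 97.6) of the testis reads. The sharp end was the most frequent end by definition. The most frequent end on the opposite side held a median of 35.4% of an island's reads, against 72.65% for the sharp end.

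**Figure D3:**
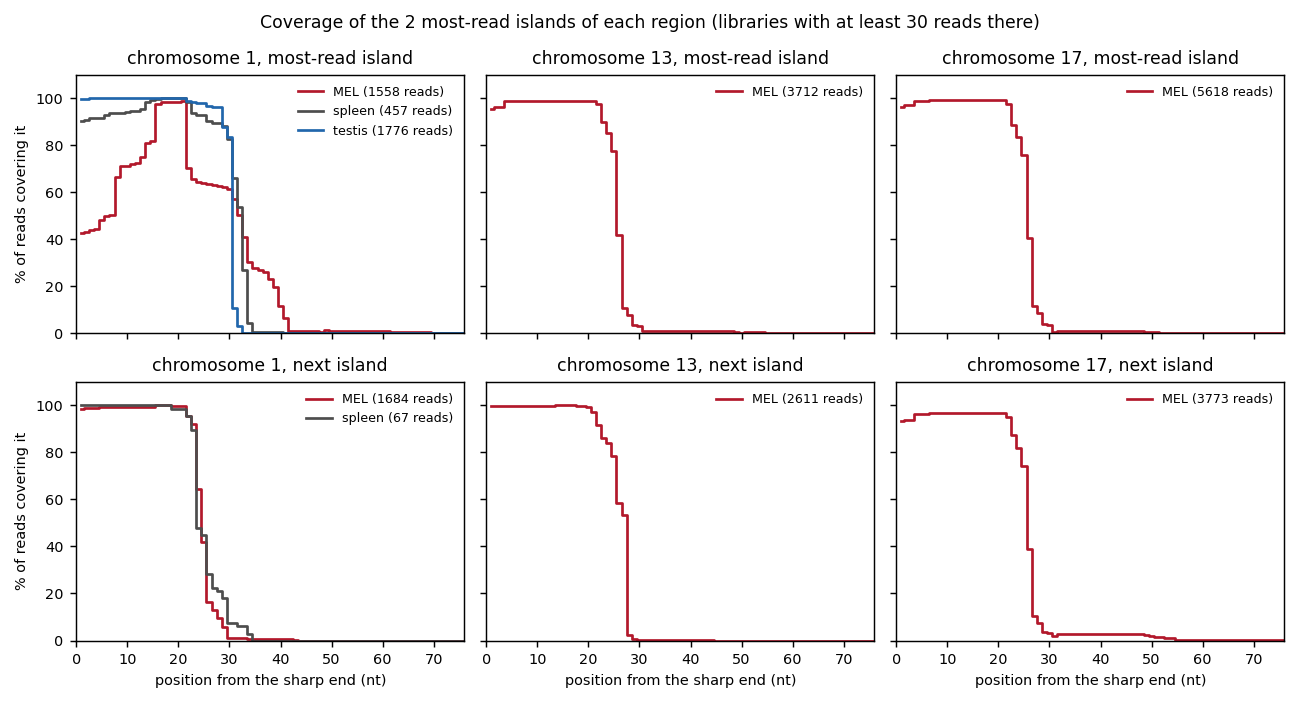
Share of an island's reads (%) that cover each position, counted in nt from the sharp end, for the 2 most-read islands of each region and the libraries with at least 30 reads there. MEL coverage falls after about 25 nt in 5 of the 6 islands, while in the most-read island of chromosome 1 testis falls at 30 nt and MEL is spread over a wider stretch.

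Testis reads came from 4 islands of chromosome 1, which together held 3192 testis reads, 92.6% (91.7 to 93.5) of those in the clusters. The same 4 islands held 757 spleen reads, or 50.1% (47.55 to 52.65), and 2811 MEL reads, or 7.14% (6.89 to 7.4). They were singled out by their testis level of 100 RPM or more. Outside them testis had 222.9 RPM in the clusters, spleen 1089.6 and MEL 44405.7.

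The largest of the 4 ran from 173033173 to 173033242 on chromosome 1 and held 1558 MEL, 457 spleen and 1776 testis reads, or 1892.0, 660.4 and 1552.7 RPM. MEL was 1.22-fold above testis there (1.14 to 1.31). In testis 72.3% of its reads were the 30 nt interval from 173033174 to 173033203, which had 1284 testis, 72 spleen and 28 MEL reads. In spleen the leading interval was 32 nt long, from 173033174 to 173033205, with 119 spleen, 30 MEL and 52 testis reads. In MEL it was the 21 nt interval from 173033174 to 173033194, with 437 MEL, 7 spleen and 21 testis reads. All 3 intervals shared their left end, and the libraries differed in the right end.

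MEL also had reads in this island that began elsewhere. The sharp end held 99.4% of the testis and 90.2% of the spleen reads of the island but 42.8% of the MEL reads. The 26 nt interval from 173033181 to 173033206, which starts at position 8 from the sharp end, had 109 MEL reads and 0 in spleen and testis. For reads of 29 to 32 nt testis had 1351.7 RPM in the island against 211.3 in MEL, 6.4-fold more (5.47 to 7.53).

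The other 3 of these islands were a near-equal set. From 172994296 to 172994366 there were 430 MEL, 94 spleen and 483 testis reads. From 173001923 to 173001995 there were 425, 113 and 474, and from 173009539 to 173009609 there were 398, 93 and 459. Their leading testis intervals, each 30 nt long, had 326, 325 and 309 reads, and the leading lengths were 21 nt in MEL, 32 nt in spleen and 30 nt in testis in all 3. These are the lengths that led in the island at 173033173. At 29 to 32 nt testis exceeded MEL by 5.86-fold, 6.8-fold and 6.65-fold. Besides these 4, the only islands with a higher testis than MEL level at 29 to 32 nt were 3 small ones, with 17, 26 and 27 testis reads of that length against 5 MEL reads each.

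These islands belong to a unit that occurs 3 times on chromosome 1, which was looked for after the values had been seen. A set of 5 islands recurred in the same order, with 7574 to 7671 nt between the matching right ends of their leading intervals. For 3 of the 5 both steps were the same, 7635 nt and then 7614 nt. In MEL the matching islands held 430, 425 and 398 reads in the first place, 24, 24 and 23 in the next, then 33, 25 and 25, then 1293, 1309 and 1309, and last 224, 227 and 223. In testis they held 483, 474 and 459, then 2, 0 and 0, then 20, 28 and 30, then 6, 7 and 2, and last 2, 1 and 0. The order of the 5 places by level was thus different in the libraries: the fourth place led in MEL, at 25 nt, and the first in testis, at 30 nt.

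**Figure D4:**
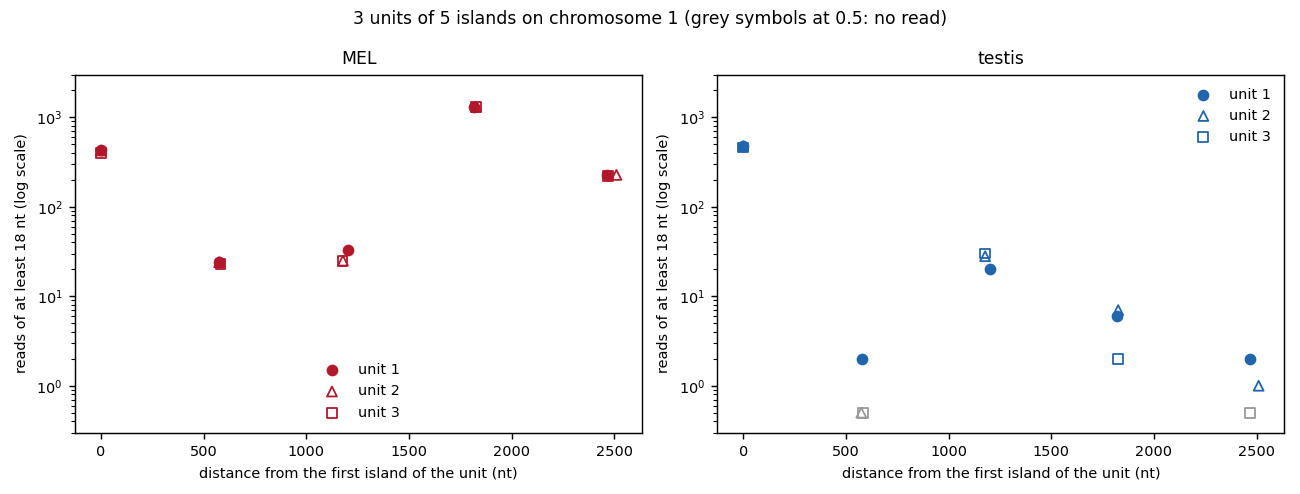
Reads of at least 18 nt (log axis) in MEL and testis on the 5 islands of each of the 3 repeated units of chromosome 1, by distance in nt from the first island of the unit. The symbols of the 3 units nearly coincide in MEL, and the fourth island leads in MEL where the first leads in testis.

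A pair of neighbouring islands near the right border of the chromosome 1 region had 0 testis reads. The exact upper limit for this is 3.225 RPM each, and 3 reads correspond to 2.62 RPM. The larger, from 173041574 to 173041616, held 1684 MEL and 67 spleen reads, of which 98.7% began on base 173041574. Its leading interval was 23 nt long in both, with 465 MEL and 28 spleen reads, and MEL was 21.1-fold above spleen (16.5 to 27.4). The smaller began at 173041624 and held 124 MEL and 93 spleen reads, nearly the same level in RPM, with a ratio of 1.12 (0.849 to 1.48). There the reads shared a right end at 173041649. A 22 nt interval held 63 of the 93 spleen reads and 20 MEL reads, while the same right end carried 256 MEL and 28 spleen reads of 17 nt, which is below the limit for islands. At this right end MEL and spleen thus differed in length.

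Islands led by short reads were a minority. The island from 172975116 to 172975189 on chromosome 1 held 636 MEL, 56 spleen and 4 testis reads, and 86.5% of its MEL reads were 18 to 23 nt long, most often 20 nt. Its left end carried a further 238 MEL reads of 17 nt and 209 of 16 nt. On chromosome 13 from 23555404 to 23555475 there were 449 MEL, 18 spleen and 38 testis reads, and 77.1% of the MEL reads were 18 to 23 nt long. Here the leading length was 21 nt in MEL and 22 nt in both spleen and testis. The 22 nt interval from 23555404 to 23555425 was the most-read testis interval of the chromosome 13 region, with 13 testis, 12 spleen and 95 MEL reads.

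The islands with most MEL reads were led by reads of 25 to 27 nt and had almost none in the other libraries. On chromosome 17 from 23677878 to 23677950 there were 5618 MEL, 19 spleen and 6 testis reads. Its leading interval, 25 nt from 23677882 to 23677906, held 1927 MEL, 0 spleen and 2 testis reads, and 78.2% of its MEL reads were 24 to 28 nt long. From 23683437 to 23683517 on the same chromosome there were 3773, 10 and 3 reads. On chromosome 13 the island from 23528863 to 23528935 had 3712, 4 and 3 reads, and those at 23492691 and 23504848 had 2611, 1 and 6 and 2586, 1 and 3. In these last a 27 nt interval led, with 1235 and 1259 MEL reads.

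In a further set of 3 islands spleen and MEL had different leading lengths. On chromosome 17 from 23670925 to 23671001 there were 1487 MEL, 72 spleen and 10 testis reads, most with a right end at 23670956. In MEL the leading interval was 26 nt long, from 23670931, with 586 MEL and 1 spleen read. In spleen it was 28 nt long, from 23670929, with 43 spleen and 106 MEL reads. The islands at 23684327 on chromosome 17 and at 23528209 on chromosome 13 had the same leading lengths, 26 nt in MEL and 28 nt in spleen. They held 1431 and 1370 MEL reads and 62 and 65 spleen reads. These leading lengths were not particular to the set: the island at 23672301 on chromosome 17 had them too, with 499 MEL and 17 spleen reads.

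Several stacks repeated at near-equal height. Of 83 intervals of at least 18 nt with 100 or more reads in a library, 67 had a partner of the same length in another bin whose count differed in each library by at most 3 times the square root of the sum of both counts. They formed 24 groups on 22 islands and held 51.8% (MEL), 15.2% (spleen) and 29.2% (testis) of the reads of 18 nt or more in the bins. The group with most reads was a pair of 25 nt intervals on chromosomes 13 and 17, at 23528910 and 23683490, with 1273 and 1277 MEL reads. The next was the pair of 27 nt intervals with 1235 and 1259. Height alone can pair unrelated stacks: the group ranked the third joined 25 nt intervals of 5 islands, with 398 to 484 MEL reads. Most group members had few or no spleen and testis reads, so they were matched mainly on length and MEL height. The share of such intervals with a partner over the genome was not computed.

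A stricter rule asked for at least 3 matched intervals at the same distances in 2 islands. Of the 15 islands of the clusters with 3 or more such intervals, 14 had a copy by this rule, inside the clusters or elsewhere in the genome. The one without was the island at 173011363 on chromosome 1, the fourth place of the third repeated unit with 1309 MEL reads, which is therefore in no family. Over the whole genome 199 islands had 3 or more such intervals, and their share with a copy was not computed. The 14 islands of the clusters entered 43 pairs, of which 39 were in the same order and 4 in mirrored order. The 4 mirrored pairs had unequal heights, with 695 or 713 MEL reads on the matched island against 2108 or 2210, and were left out of the families. The other pairs gave 8 families of 38 islands, 14 of them in the clusters. In family 8 these totals were also unequal, with 563 MEL reads on the chromosome 13 island at 23538041 against 1302 on its partner. This same-order pair was kept.

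**Figure D5:**
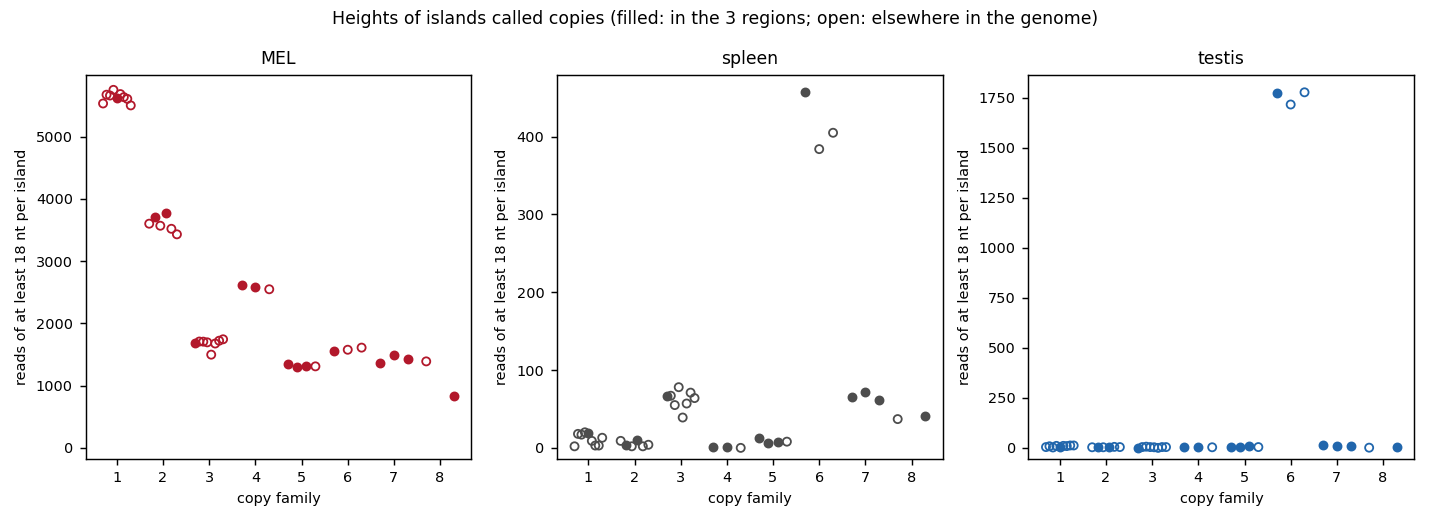
Reads of at least 18 nt on each island of the 8 copy families, by library, with islands in the 3 regions filled and islands elsewhere open. In MEL heights lie within 1.165-fold of each other in families 1 to 7, family 8 is split between 829 and 1389 reads, and in testis only family 6 is above 12 reads.

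The family with most reads had 9 islands, 1 of them the chromosome 17 island at 23677878 and the others on chromosomes 1, 3, 6, 7, 11 and 14. Each held 5503 to 5753 MEL reads, 1.05-fold apart, and together they held 50674, or 6.15% (6.1 to 6.21) of the MEL library. The same 9 islands held 104 spleen and 73 testis reads. The second family joined the islands at 23528863 on chromosome 13 and 23683437 on chromosome 17 with 4 others, at 3431 to 3773 MEL reads each and 21607 in all. The chromosome 1 island at 173041574 had 7 copies elsewhere, at 1497 to 1744 MEL reads, 39 to 78 spleen reads and 0 to 6 testis reads.

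The chromosome 1 island at 173033173 had copies on chromosomes 3 and 10. The 3 held 1558, 1610 and 1576 MEL reads, 457, 405 and 384 spleen reads and 1776, 1778 and 1717 testis reads, so that all 3 libraries were near-equal over the copies. The islands at 23670925 and 23684327 on chromosome 17 and at 23528209 on chromosome 13 were copies of each other, and the 2 chromosome 13 islands with 27 nt reads had a further copy on chromosome 7. The 8 families held 109971 MEL reads, or 13.4% of the library, of which 27.8% lay in the 3 clusters. They held 0.317% of the spleen and 0.478% of the testis library. Where reads that match several places were put is not given in the sources used here, so reads of a family cannot be assigned to 1 of its islands, and the level of a copy need not be that of 1 gene.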

How the data were processed

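Each deposited file lists mapped reads of 1 library, with chromosome, start and end per line; the authors' files hold no count, score, strand or sequence. The submitters' processing notes name Bowtie 0.12.7. Its options, any trimming, the placing of multiply matching reads and the build were not given in the sources used here. Annotation of GRCm38 was not joined to the positions, which run to 152523579 on chromosome 7. Coordinates follow the files and count from 1.

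From these positions, reads were counted by left end per 500 bp bin and scaled to 1000000 reads of the library (RPM). Read length is the file's end minus the file's start, which counts from 0. Intervals are exact Poisson for RPM, exact Clopper-Pearson for shares and exact conditional for ratios, at 95%. Reads carry no molecular identifiers. With 1 library per group no test was made. Islands joined overlapping reads of 18 nt or more. Bins and intervals named in the text were the most-read ones per library or region, those with the largest folds and those leading the equal-height groups; other islands were chosen after their values were seen. Members and lists were chosen with earlier results of these data known. Alternatives are in the closing section. Python 3.11.15, numpy 2.4.6, pandas 2.3.3 and scipy 1.17.1 were used.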

Additional observations from a re-analysis of the deposited data

How the results depend on the processing

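No paired analysis was possible because each group had 1 library. Of 98 recomputed values 50 stayed and 48 moved, judged for levels and shares by the counting interval of the value in the report and for counts of bins, intervals and islands by 1.5 times; the cause was not tested beyond what each setting removes. In the order MEL, spleen and testis, the level in the clusters was 11655.1, 3389.2 and 637.9 RPM with each distinct interval counted once, and 40962.9, 1518.8 and 1460.9 without the most-read bin. With reads of at least 18 nt it was 70594.7 in MEL and 7582.8 in spleen. In these 3 settings, and without chromosome 1, spleen was above testis, though only slightly without the most-read bin. No setting of the level was limited to 29 to 32 nt, where testis was above MEL, with 2556.4 against 1979.5 RPM. MEL was above both in every setting of the level that was run. Without 1 region at a time, which was chosen after seeing the data, as were the settings of 18 to 23 nt, 29 to 32 nt and 20 reads, it was 31483.3, 582.4 and 91.8 (chromosome 1), 32230.2 and 1908.9 (chromosome 13) and 31925.4 and 1875.7 (chromosome 17).

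By distinct interval the shares of 18 to 23, 24 to 28 and 29 to 32 nt were 40.6%, 41.8% and 9.34% in MEL, 38.0%, 25.4% and 19.9% in spleen, and 16.5%, 35.05% and 44.3% in testis. Without the most-read bin they were 26.0% and 66.3% for the shorter classes in MEL, 32.5%, 26.8% and 23.03% in spleen, and 4.67% (18 to 23 nt) and 82.5% (29 to 32 nt) in testis. With classes of 19 to 24, 25 to 29 and 30 to 33 nt they were 32.99%, 61.3% and 1.97% in MEL, 24.35% and 39.05% for the longer classes in spleen, and 17.1% and 79.1% in testis. At 50 RPM 10 spleen and 4 testis bins passed, and 25 testis bins had at least 3 reads. Bins higher in spleen than in testis numbered 6 at 50 RPM, 10 with 24 to 32 nt reads and 9 of 12 with 29 to 32 nt reads. At 2-fold 4 bins were higher in testis than in spleen. The shares over the genome at these settings are not given here, so these counts cannot be set against them. In these counts by length, RPM was scaled to the library's reads of those lengths, not to all its reads. Reads of 29 to 32 nt were 5.1% of the other spleen reads and 75.2% of the other testis reads, so the scale raised spleen. Equal-height intervals numbered 106 of 128 at 50 reads, and 0 of 83 with identical counts. Islands with a copy numbered 25 of 26 at 20 reads, where 138 of the 326 pairs were in mirrored order, and the island at 173011363 then matched its counterpart at 173003749 in 15 intervals.

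Depth limits the testis and spleen values: on chromosome 17 they rest on 31 and 213 reads, and where a library has 0 reads folds were computed against 3 reads.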
